A study of Rattus norvegicus with 12 samples.

Results

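Fatty acid oxidation was followed through 31 genes, chosen by name: the enzymes that activate fatty acids, carry them into mitochondria and cut them down there or in peroxisomes, together with 4 genes that control the pathway. All 31 had 1 named probe set each, of the 15037 gene symbols named on the array, and all are accounted for. Gene expression was measured in 12 rat cell cultures, 3 in each of 4 groups. The parental ELT3 cells lack Tsc2, come from an Eker rat with a leiomyoma of the uterus and are sensitive to rapamycin, which inhibits the kinase complex mTORC1 that Tsc2 holds back. ELT3-245 is a rapamycin-resistant line that was established from a single ELT3 xenograft tumor of 1 immunodeficient mouse that had received rapamycin, so the resistant state is represented by 1 line. Cultures of both lines received DMSO or rapamycin for 24 h, at a labelled concentration of 20 nM. The labels also state that 10 µl was added from stock at 20 mM to plates holding 10 ml, an amount equal to 20 µM, so the labels disagree on the dose. The paper that reported these arrays gives it as 20 nM for 24 h. No group carries a working Tsc2. The labels describe triplicate cultures, and the p-values measure the spread between those cultures.

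Cells burn long-chain fatty acids in steps. Acyl-CoA synthetases attach the acid to coenzyme A, and the carnitine shuttle passes it across the inner mitochondrial membrane. A repeating spiral of dehydrogenation, hydration, dehydrogenation and thiolysis then removes acetyl-CoA, with electrons handed to the respiratory chain through electron transfer flavoprotein. Very long and branched chains are shortened first in peroxisomes. PPAR family receptors, with the coactivator encoded by Ppargc1a, turn on many of these genes when fatty acids are plentiful.

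The values were log2 signals, 1 per probe set and array. Array medians ran from 6.69 to 6.82, and arrays of one group correlated at 0.99283 to 0.99658 across probe sets. Of the 31 genes, 25 had a mean signal at or above the median probe set, and 6 were dimmer: Cpt1b, Eci1, Ehhadh, Ppara, Ppargc1a and Pdk4. Tsc2 itself was read at 9.46 to 9.64 in ELT3 with DMSO, 10.25 to 10.73 in ELT3 with rapamycin, 9.16 to 9.81 in ELT3-245 with DMSO and 9.80 to 10.19 in ELT3-245 with rapamycin. Without a wild-type group, and with the place of its probes unknown here, this reading does not check the genotype. Among the smooth muscle markers Acta2, Tagln and Des were bright in all groups, while Cnn1, Myocd and Myh11 were below the median, at percentiles 46.3, 42.1 and 20.1 of the probe sets. The other 7 of the 10 reached it. The summed level of the 10 on the log2 scale was 16.97 to 17.02 in ELT3 with DMSO, 18.13 to 18.21 in ELT3 with rapamycin, 17.08 to 17.18 in ELT3-245 with DMSO and 17.41 to 17.59 in ELT3-245 with rapamycin. By the thresholds given below, 3 of the 10 (30%) were called higher and 4 (40%) lower in ELT3-245 in DMSO. Over all probe sets 7.3% were called higher and 7.56% lower. In rapamycin 0 of the 10 were called higher and 4 (40%) lower, against 8.86% and 7.92%. In DMSO the means in ELT3 and ELT3-245 were 14.78 and 11.69 for Tagln and 10.87 and 9.52 for Pgr. They were 15.70 and 16.65 for Des and 9.95 and 11.41 for Lmod1. None of 6 adipocyte markers reached the median signal. All 9 fibroblast markers did, and their summed level on the log2 scale was 17.88 to 17.91 in ELT3 with DMSO, 18.26 to 18.37 in ELT3 with rapamycin, 18.12 to 18.23 in ELT3-245 with DMSO and 18.41 to 18.51 in ELT3-245 with rapamycin. Col1a2 leads that sum, with group means of 17.24 to 17.64. Between the lines 6 of the 9 (66.7%) were called higher in ELT3-245 in DMSO and also in rapamycin, and 0 lower. Over all probe sets 7.3% and 8.86% were called higher. In DMSO the means in ELT3 and ELT3-245 were 6.47 and 12.39 for Dcn, 4.40 and 10.86 for Lum and 8.84 and 12.67 for Pdgfra. By direction, 1 of the 9 differences was negative in DMSO and 3 in rapamycin. Of 7 endothelial markers only Kdr reached the median, and it makes up nearly all of their sum in ELT3-245. In DMSO the means in ELT3 and ELT3-245 were 6.27 and 13.50 for Kdr and 6.67 and 5.10 for Tek. In ELT3-245 1 of the 7 (14.3%) was called higher and 1 (14.3%) lower in DMSO. In rapamycin 1 (14.3%) was called higher and 2 (28.6%) lower, against the shares of all probe sets given above. By direction, 5 of the 7 differences were negative in DMSO and 3 in rapamycin. The endothelial sum was 8.23 to 8.34 in ELT3 with DMSO, 8.30 to 8.41 in ELT3 with rapamycin, 13.36 to 13.65 in ELT3-245 with DMSO and 11.59 to 11.86 in ELT3-245 with rapamycin, with Pecam1, Cdh5 and Vwf dim throughout. Of 8 leukocyte markers Cd14, Cd68 and Csf1r reached the median, with sums of 12.42 to 12.69, 13.81 to 14.09, 11.95 to 12.11 and 13.02 to 13.54 in the same group order, while Ptprc, Adgre1 and Itgam were dim. The part of these markers in the differences below was not tested. In bulk RNA, fewer cells with a transcript and less of it per cell cannot be told apart.

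Without drug, more of the 31 genes were called higher than lower in the resistant line. A gene was called where the adjusted p was under 0.05 and the difference at least 1.5-fold. In DMSO, 12 of the 31 genes were called higher in ELT3-245 than in ELT3 (Acsl3, Cpt1a, Cpt2, Acadvl, Hadha, Hadhb, Eci1, Etfdh, Ehhadh, Hsd17b4, Ppard and Pdk4), 3 were called lower (Acsl1, Acadl and Acaa2) and 16 were not called. Over all 23188 probe sets 7.3% were called higher and 7.56% lower. Over the probe sets at or above the median mean signal, a background added after the data were seen because most of these genes are bright, 10.8% were called higher and 11.8% lower. The median log2 difference of the 31 genes was 0.15, against 0.01 over all probe sets. An unequal-variance test per gene kept 4 of the 12 higher calls (Hadha, Hadhb, Eci1 and Ppard) and all 3 lower ones. In rapamycin 5 genes were called higher in ELT3-245 (Acsl4, Acadvl, Hadhb, Ppard and Pdk4) and 4 lower (Acsl1, Acadl, Hadh and Acaa2), against 8.86% and 7.92% of all probe sets and 14.6% and 12.1% of the brighter ones, so the share called higher (16.1%) was close to that background. Genes called in the same direction with and without drug were Acadvl, Hadhb, Ppard and Pdk4, which were higher, and Acsl1, Acadl and Acaa2, which were lower.

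Counted by calls, rapamycin lowered more of these genes than it raised. In ELT3, 3 genes were called higher (Cpt2, Ehhadh and Hsd17b4) and 7 lower (Acsl1, Acsl3, Acsl4, Acads, Echs1, Etfb and Ppard), while 7.47% of all probe sets were called higher and 8.45% lower (12.4% and 15.4% of the brighter ones). The share of the 31 genes called higher in ELT3 (9.68%) lay between these backgrounds, and the share called lower (22.6%) above them. Leaving out 1 array at a time gave 5 to 7 genes called lower in ELT3, and the backgrounds were not recounted that way. Both backgrounds also held more lower than higher calls. In ELT3-245 limma called 0 higher and 5 lower (16.1%: Acsl1, Acsl3, Echs1, Hadh and Ppard), against 5.65% and 4.98% of all probe sets and 9.89% and 8.75% of the brighter ones. At an unadjusted p under 0.05 the counts were 2 higher and 12 lower, and the unequal-variance test per gene called 0 higher and 3 lower. All probe sets were not counted in these 2 ways, so these counts have no background share beside them. By direction alone, called or not, 27 of the 31 differences were negative in ELT3-245, with a median log2 difference of -0.21, against 12098 of 23188 probe sets with a median of -0.02. In ELT3 the same genes were split, with 15 negative and a median of 0.02.

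**Figure D1:**
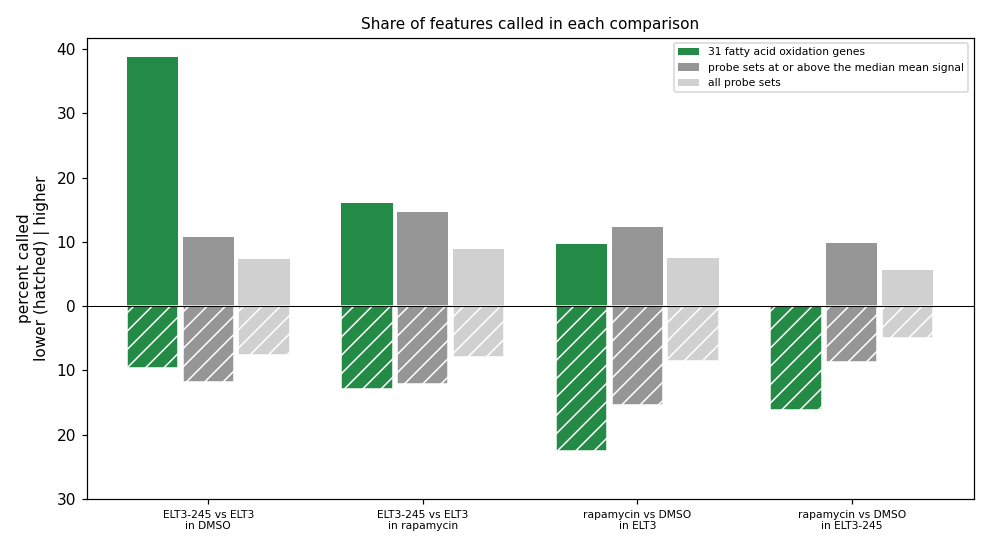
Percent of features called higher (plain bars, upward) and lower (hatched bars, downward) in the 4 pairwise comparisons, for the 31 fatty acid oxidation genes, the probe sets at or above the median mean signal and all probe sets. The share of fatty acid oxidation genes called higher was 38.7% between the lines in DMSO, and 0 of 31 were called higher by rapamycin in ELT3-245.

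**Figure D2:**
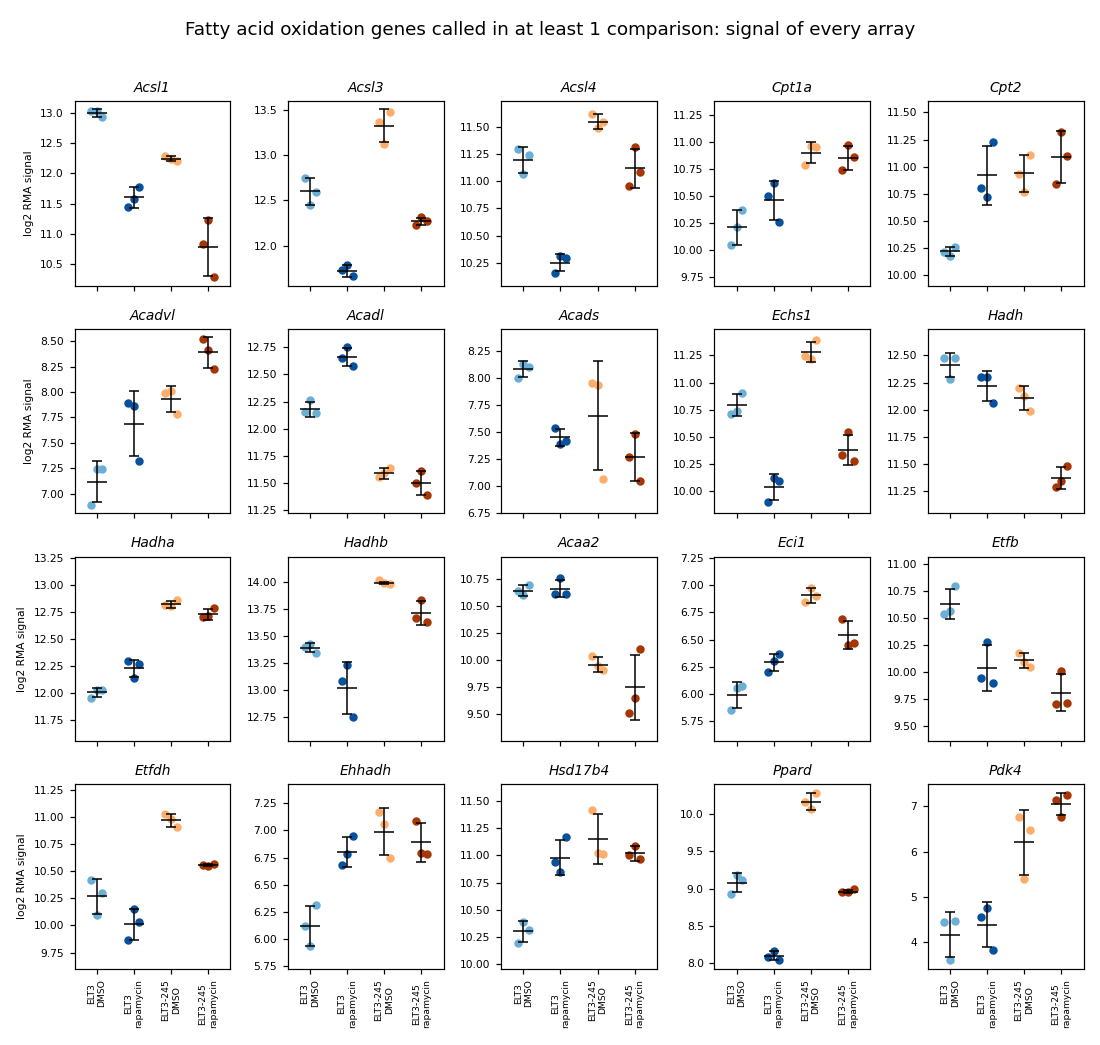
Log2 RMA signal of each array (points) with the group mean and SD (black bars, n = 3) for the 20 genes called in at least 1 comparison, with a vertical scale of its own for each gene. For Cpt2, Ehhadh and Hsd17b4 the 3 arrays of ELT3 with DMSO lie below the other 9.

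Among the activating enzymes, Acsl1 and Acsl3 were called lower with rapamycin in both lines, Acsl4 in ELT3 and Acsl5 in neither. Acsl1, a long-chain acyl-CoA synthetase that is abundant in fat-burning tissue, was read at 13.03, 13.04 and 12.94 in ELT3 with DMSO, 11.44, 11.58 and 11.78 in ELT3 with rapamycin, 12.28, 12.23 and 12.21 in ELT3-245 with DMSO and 10.83, 11.23 and 10.28 in ELT3-245 with rapamycin. The 4 groups did not overlap, and within each line the rapamycin cultures were the lower ones. Acsl1 fell by 1.40 on the log2 scale in ELT3 (SE 0.19, 2.64-fold, adjusted p = 0.000192) and by 1.46 in ELT3-245 (SE 0.19, 2.74-fold, adjusted p = 0.000243). It was also lower in ELT3-245 than in ELT3, by a log2 difference of -0.76 in DMSO (adjusted p = 0.0125) and -0.82 in rapamycin (adjusted p = 0.00728). The rapamycin call between the lines rests on replicate 3 of ELT3-245 with rapamycin, the lowest array. Without it the log2 difference was -0.57, under 1.5-fold (adjusted p = 0.0164).

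Acsl3, the synthetase of the endoplasmic reticulum and lipid droplets, was read at 12.75, 12.45 and 12.59 in ELT3 with DMSO, 11.73, 11.79 and 11.66 in ELT3 with rapamycin, 13.37, 13.13 and 13.48 in ELT3-245 with DMSO and 12.23, 12.32 and 12.27 in ELT3-245 with rapamycin. It was highest in the untreated resistant cultures, and there was no overlap between a line's DMSO and rapamycin arrays. It fell by 0.87 in ELT3 (SE 0.12, 1.83-fold, adjusted p = 0.000176) and by 1.05 in ELT3-245 (SE 0.12, 2.08-fold, adjusted p = 7.51e-05) on the log2 scale, and was 0.73 higher in ELT3-245 in DMSO (adjusted p = 0.00061). Acsl4, which prefers arachidonic acid, was read at 11.30, 11.07 and 11.24 in ELT3 with DMSO, 10.16, 10.31 and 10.29 in ELT3 with rapamycin, 11.62, 11.49 and 11.55 in ELT3-245 with DMSO and 10.96, 11.32 and 11.09 in ELT3-245 with rapamycin. Only the rapamycin-treated ELT3 cultures stood clearly below the rest. Acsl4 fell by 0.95 in ELT3 (SE 0.12, 1.93-fold, adjusted p = 9.69e-05). In ELT3-245 its log2 difference was -0.43 (adjusted p = 0.0254), under 1.5-fold, and the difference between the 2 responses was 0.52 and not called (adjusted p = 0.107). Acsl5, the synthetase also found on mitochondria, was the brightest of the 31 probe sets, with group means between 14.35 and 14.47, and was called in no comparison.

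In the carnitine shuttle, both carnitine palmitoyltransferases that gave a bright signal were higher in the untreated resistant line. Cpt1a, the rate-controlling enzyme on the outer mitochondrial membrane, was read at 10.05, 10.21 and 10.37 in ELT3 with DMSO, 10.50, 10.62 and 10.26 in ELT3 with rapamycin, 10.79, 10.96 and 10.95 in ELT3-245 with DMSO and 10.74, 10.97 and 10.86 in ELT3-245 with rapamycin. The lines did not overlap under either treatment. In DMSO the log2 difference was 0.69 (SE 0.13, 1.61-fold, adjusted p = 0.00177), and in rapamycin it was 0.39 (adjusted p = 0.042), under 1.5-fold. Cpt2, which releases the acid from carnitine on the inner membrane, was read at 10.21, 10.18 and 10.26 in ELT3 with DMSO, 10.80, 10.72 and 11.23 in ELT3 with rapamycin, 10.93, 10.77 and 11.11 in ELT3-245 with DMSO and 10.84, 11.32 and 11.10 in ELT3-245 with rapamycin. The untreated ELT3 cultures were low and the other 3 groups overlapped. Against those shared ELT3 cultures, Cpt2 was 0.72 higher on the log2 scale in untreated ELT3-245 (SE 0.16, adjusted p = 0.00583) and rose by 0.70 with rapamycin in ELT3 (SE 0.16, adjusted p = 0.00618). The rise rests on replicate 3 of ELT3 with rapamycin, without which it was 0.55 (adjusted p = 0.0228), under 1.5-fold. The other 3 shuttle genes were not called: Cpt1b, the muscle isoform, with dim group means of 4.96 to 5.30, Slc25a20, the carrier that exchanges acylcarnitine for carnitine, with means of 8.71 to 9.29, and Crat, the acetyltransferase, with means of 11.93 to 12.33.

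Enzymes of the mitochondrial spiral moved in both directions between the lines, also among the acyl-CoA dehydrogenases that open it. Acadvl, which acts on very long chains at the inner membrane, was read at 6.89, 7.24 and 7.24 in ELT3 with DMSO, 7.89, 7.86 and 7.32 in ELT3 with rapamycin, 7.99, 8.01 and 7.78 in ELT3-245 with DMSO and 8.52, 8.41 and 8.23 in ELT3-245 with rapamycin. The resistant line was higher under both treatments with no overlap. The log2 difference was 0.81 in DMSO (SE 0.17, 1.75-fold, adjusted p = 0.00366) and 0.70 in rapamycin (SE 0.17, 1.62-fold, adjusted p = 0.00814). The latter was 0.51 (adjusted p = 0.0266), under 1.5-fold, without replicate 3 of ELT3 with rapamycin.

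Acadl, the long-chain dehydrogenase, went the other way. Its signals were 12.15, 12.26 and 12.14 in ELT3 with DMSO, 12.65, 12.75 and 12.58 in ELT3 with rapamycin, 11.55, 11.59 and 11.64 in ELT3-245 with DMSO and 11.50, 11.61 and 11.39 in ELT3-245 with rapamycin. Every resistant culture was below every ELT3 culture, and rapamycin-treated ELT3 was the highest group. The log2 difference between the lines was -1.16 in rapamycin (SE 0.10, 2.23-fold, adjusted p = 2.87e-06) and -0.59 in DMSO (SE 0.10, 1.51-fold, adjusted p = 0.000962). The DMSO difference lies just past 1.5-fold, and was -0.57 without replicate 1 of ELT3-245 with DMSO and -0.55 without replicate 2 of ELT3 with DMSO, both under it. Acads, the short-chain dehydrogenase, was read at 8.00, 8.13 and 8.10 in ELT3 with DMSO, 7.54, 7.39 and 7.42 in ELT3 with rapamycin, 7.95, 7.93 and 7.07 in ELT3-245 with DMSO and 7.27, 7.48 and 7.05 in ELT3-245 with rapamycin. The DMSO and rapamycin arrays were apart in ELT3 and overlapped in ELT3-245, where replicate 3 with DMSO was low. Acads fell by 0.63 on the log2 scale in ELT3 (SE 0.21, 1.55-fold, adjusted p = 0.0416). That call was lost without any 1 of the 6 ELT3 arrays or without replicate 1 of ELT3-245 with rapamycin, with adjusted p up to 0.108. Acadm, the medium-chain dehydrogenase, was not called, with group means of 6.73 to 7.20.

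Among the later steps, Echs1, the short-chain enoyl-CoA hydratase, was read at 10.71, 10.74 and 10.90 in ELT3 with DMSO, 9.90, 10.12 and 10.09 in ELT3 with rapamycin, 11.24, 11.22 and 11.39 in ELT3-245 with DMSO and 10.33, 10.54 and 10.28 in ELT3-245 with rapamycin. It was lower with rapamycin in every culture of both lines. It fell by 0.75 in ELT3 (SE 0.11, 1.68-fold, adjusted p = 0.00042) and by 0.90 in ELT3-245 (SE 0.11, 1.86-fold, adjusted p = 0.000192) on the log2 scale. Hadh, the dehydrogenase for medium and short 3-hydroxyacyl-CoA, was read at 12.48, 12.28 and 12.48 in ELT3 with DMSO, 12.30, 12.30 and 12.06 in ELT3 with rapamycin, 12.20, 12.13 and 11.99 in ELT3-245 with DMSO and 11.29, 11.34 and 11.48 in ELT3-245 with rapamycin. The rapamycin-treated resistant cultures were lower than all others. Hadh fell by 0.74 with rapamycin in ELT3-245 (SE 0.12, 1.67-fold, adjusted p = 0.000824) and was lower than in ELT3 in rapamycin, with a log2 difference of -0.85 (SE 0.12, 1.80-fold, adjusted p = 0.000137). Its response in ELT3 was -0.20 (adjusted p = 0.252), and the difference of the responses, -0.54, was not called (adjusted p = 0.0897).

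Acaa2, the mitochondrial thiolase that closes the spiral for most chain lengths, was read at 10.64, 10.60 and 10.69 in ELT3 with DMSO, 10.61, 10.76 and 10.61 in ELT3 with rapamycin, 10.04, 9.95 and 9.91 in ELT3-245 with DMSO and 9.51, 9.65 and 10.10 in ELT3-245 with rapamycin. Each resistant culture was below each ELT3 culture. The log2 difference was -0.68 in DMSO (SE 0.14, 1.60-fold, adjusted p = 0.00323) and -0.91 in rapamycin (SE 0.14, 1.88-fold, adjusted p = 0.000344).

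Hadha and Hadhb encode the 2 subunits of the mitochondrial trifunctional protein, which carries out the last steps for long chains. In the RefSeq annotation of GRCr8 their start sites lie 301 bases apart on chromosome 6, facing away from each other. Their upstream regions are printed because both genes were higher in the untreated resistant line and 200 of the 250 bases before each start are shared, read on opposite strands. The Hadha window is chr6:31907551-31907800 on the plus strand and the Hadhb window is chr6:31907501-31907750 on the minus strand, both written from 5′ to 3′ and ending at the base before the start site.
Hadha: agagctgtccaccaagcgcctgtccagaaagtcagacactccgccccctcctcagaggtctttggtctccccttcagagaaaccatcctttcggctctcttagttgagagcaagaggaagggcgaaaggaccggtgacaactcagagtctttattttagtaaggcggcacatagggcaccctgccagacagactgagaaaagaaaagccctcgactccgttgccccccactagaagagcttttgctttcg
Hadhb: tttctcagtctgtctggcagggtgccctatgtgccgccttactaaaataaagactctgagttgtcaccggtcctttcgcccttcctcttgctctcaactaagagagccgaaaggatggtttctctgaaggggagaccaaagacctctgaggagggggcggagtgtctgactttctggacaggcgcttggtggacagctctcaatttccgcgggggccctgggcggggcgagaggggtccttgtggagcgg
Hadha was read at 11.96, 12.03 and 12.03 in ELT3 with DMSO, 12.30, 12.14 and 12.27 in ELT3 with rapamycin, 12.81, 12.80 and 12.86 in ELT3-245 with DMSO and 12.70, 12.71 and 12.79 in ELT3-245 with rapamycin. Hadhb was read at 13.40, 13.42 and 13.34, then 13.08, 13.23 and 12.75, then 14.01, 13.99 and 13.98, and then 13.66, 13.83 and 13.63 in the same groups. For both subunits every resistant culture was above every ELT3 culture. In DMSO the log2 difference was 0.82 for Hadha (SE 0.09, 1.76-fold, adjusted p = 3.06e-05) and 0.60 for Hadhb (SE 0.12, 1.52-fold, adjusted p = 0.00344). In rapamycin it was 0.50 for Hadha (adjusted p = 0.00149), under 1.5-fold, and 0.69 for Hadhb (SE 0.12, 1.61-fold, adjusted p = 0.00119). The Hadhb calls sit near the threshold. The DMSO difference was 0.58 without replicate 3 of ELT3 with DMSO and 0.57 when each array was centred on its median, and the rapamycin difference was 0.56 without replicate 3 of ELT3 with rapamycin, all under 1.5-fold.

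Unsaturated fatty acids need extra enzymes before the spiral can go on. Eci1, the mitochondrial enoyl-CoA isomerase that shifts double bonds, was read at 5.85, 6.05 and 6.07 in ELT3 with DMSO, 6.20, 6.30 and 6.37 in ELT3 with rapamycin, 6.85, 6.98 and 6.90 in ELT3-245 with DMSO and 6.69, 6.45 and 6.47 in ELT3-245 with rapamycin. The lines did not overlap, and the rapamycin arrays were above the DMSO arrays in ELT3 and below them in ELT3-245. In DMSO the resistant line was 0.92 higher on the log2 scale (SE 0.11, 1.89-fold, adjusted p = 4.98e-05). Eci2, a second isomerase, had group means of 9.97 to 10.36 and Decr1, the dienoyl-CoA reductase, had means of 10.40 to 10.87, and neither was called.

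In electron transfer, Etfdh passes electrons from the flavoprotein to ubiquinone. It was read at 10.42, 10.10 and 10.30 in ELT3 with DMSO, 9.87, 10.15 and 10.03 in ELT3 with rapamycin, 11.03, 10.98 and 10.91 in ELT3-245 with DMSO and 10.56, 10.55 and 10.57 in ELT3-245 with rapamycin. All 6 resistant cultures were above all 6 ELT3 cultures. The log2 difference was 0.70 in DMSO (SE 0.11, 1.62-fold, adjusted p = 0.000615) and 0.55 in rapamycin (adjusted p = 0.00321), under 1.5-fold. Etfb, the beta subunit of the flavoprotein, was read at 10.54, 10.56 and 10.79 in ELT3 with DMSO, 9.95, 10.28 and 9.90 in ELT3 with rapamycin, 10.18, 10.09 and 10.05 in ELT3-245 with DMSO and 9.71, 10.01 and 9.72 in ELT3-245 with rapamycin. The untreated ELT3 cultures were the high ones. Etfb fell by 0.59 in ELT3 (SE 0.13, adjusted p = 0.00663), and the difference was -0.50 without replicate 3 of ELT3 with DMSO, -0.54 without replicate 1 and -0.51 without replicate 3 of ELT3 with rapamycin, -0.54 after quantile normalization and -0.50 with array weights, each under 1.5-fold. Etfa, the alpha subunit, was not called, with group means of 12.86 to 13.34.

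**Figure D3:**
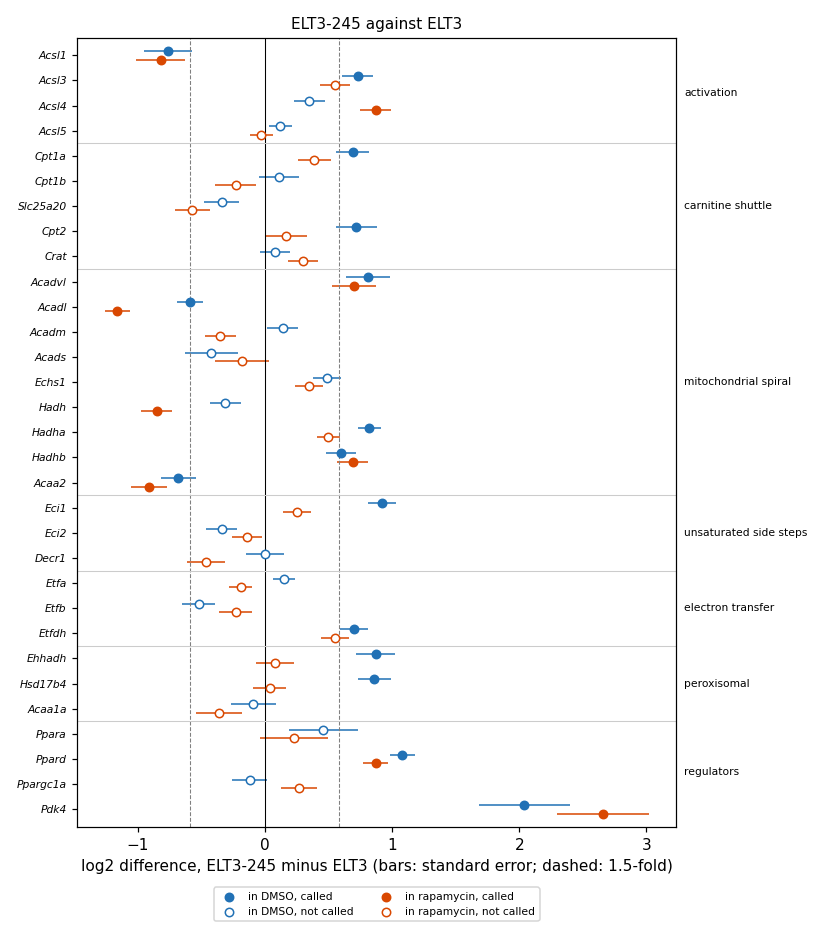
Log2 difference of ELT3-245 minus ELT3 for the 31 genes, ordered by role, in DMSO (blue) and in rapamycin (orange). Bars are standard errors from the fit, filled points are called and dashed lines mark 1.5-fold. Pdk4 lies farthest to the right, at 2.04 and 2.66, and Acadl in rapamycin farthest to the left, at -1.16.

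Both bifunctional enzymes of the peroxisome showed one pattern. The 250 bases before their start sites in RefSeq (GRCr8), Ehhadh at chr11:92746159-92746408 and Hsd17b4 at chr18:45515177-45515426, both on the plus strand, are shown for that reason, with the nuclear receptor core motif AGGTCA in capitals where it occurs.
Ehhadh: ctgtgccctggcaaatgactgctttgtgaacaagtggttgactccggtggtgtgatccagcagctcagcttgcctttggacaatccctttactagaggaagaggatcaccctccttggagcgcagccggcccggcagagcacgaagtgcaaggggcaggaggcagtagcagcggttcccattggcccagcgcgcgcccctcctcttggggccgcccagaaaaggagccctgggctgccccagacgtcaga
Hsd17b4: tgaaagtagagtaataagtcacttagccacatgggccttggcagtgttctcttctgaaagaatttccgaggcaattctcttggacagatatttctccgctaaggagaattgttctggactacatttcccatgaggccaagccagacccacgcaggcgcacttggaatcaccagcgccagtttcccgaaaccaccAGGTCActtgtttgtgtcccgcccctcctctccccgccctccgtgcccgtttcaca
Hsd17b4, the D-bifunctional protein for very long and branched chains, was read at 10.19, 10.39 and 10.31 in ELT3 with DMSO, 10.94, 10.85 and 11.17 in ELT3 with rapamycin, 11.42, 11.02 and 11.01 in ELT3-245 with DMSO and 11.00, 11.09 and 10.97 in ELT3-245 with rapamycin. Ehhadh, the L-bifunctional enzyme and a well-known PPAR alpha target in rodent liver, was read at 6.12, 5.94 and 6.31, then 6.68, 6.78 and 6.95, then 7.17, 7.06 and 6.75, and then 7.09, 6.79 and 6.78 in the same groups. For both, untreated ELT3 was low and the other 3 groups overlapped. Hsd17b4 was 0.86 higher on the log2 scale in untreated ELT3-245 than in untreated ELT3 (SE 0.13, 1.81-fold, adjusted p = 0.000471), and Ehhadh was 0.87 higher (SE 0.15, 1.83-fold, adjusted p = 0.000925). With rapamycin in ELT3, Hsd17b4 rose by 0.69 (SE 0.13, 1.61-fold, adjusted p = 0.00233) and Ehhadh by 0.68 (SE 0.15, 1.60-fold, adjusted p = 0.00489). These comparisons share the ELT3 cultures with DMSO. An unequal-variance test per gene kept none of these calls. Between the lines in DMSO its adjusted p was 0.0906 for Hsd17b4 and 0.0611 for Ehhadh. For rapamycin in ELT3 it was 0.065 for Hsd17b4 and 0.0716 for Ehhadh. In rapamycin the lines differed by 0.04 for Hsd17b4 (adjusted p = 0.892) and 0.08 for Ehhadh (adjusted p = 0.748). Acaa1a, a peroxisomal thiolase, was not called, with group means of 6.86 to 7.22.

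Of the controlling genes, Ppard, a PPAR receptor that activates fatty acid oxidation in muscle, differed in all 4 pairwise comparisons. It was read at 8.93, 9.18 and 9.11 in ELT3 with DMSO, 8.08, 8.16 and 8.04 in ELT3 with rapamycin, 10.15, 10.06 and 10.28 in ELT3-245 with DMSO and 8.95, 8.95 and 8.99 in ELT3-245 with rapamycin. Untreated ELT3-245 was the highest group and rapamycin-treated ELT3 the lowest, and the treated resistant cultures lay near untreated ELT3. Ppard fell with rapamycin by 0.98 in ELT3 (SE 0.10, 1.97-fold, adjusted p = 3.18e-05) and by 1.20 in ELT3-245 (SE 0.10, 2.30-fold, adjusted p = 1.1e-05) on the log2 scale. Between the lines it was 1.08 higher in DMSO (2.12-fold, adjusted p = 7.2e-06) and 0.87 higher in rapamycin (1.82-fold, adjusted p = 4.97e-05).

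Pdk4, the kinase that switches off pyruvate dehydrogenase and so spares glucose, gave the largest difference between the lines of the 31 genes. It was read at 4.44, 3.60 and 4.48 in ELT3 with DMSO, 4.56, 4.76 and 3.83 in ELT3 with rapamycin, 6.77, 5.40 and 6.47 in ELT3-245 with DMSO and 7.13, 6.76 and 7.25 in ELT3-245 with rapamycin. The lines did not overlap, although the ELT3 signals were among the dim ones on the array, where no detection call says whether they lie above background. The log2 difference was 2.04 in DMSO (SE 0.36, 4.11-fold, adjusted p = 0.0011) and 2.66 in rapamycin (SE 0.36, 6.32-fold, adjusted p = 0.000122). Its response to rapamycin was 0.83 in ELT3-245 and did not pass the test (adjusted p = 0.144). Ppara, the PPAR receptor best known from liver, and Ppargc1a were dim in all groups, with means of 3.80 to 4.25 and 3.84 to 4.14, at percentiles 7.59 and 6.87 of the probe sets. Neither was called.

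The test of whether rapamycin acted differently in the 2 lines called 2 of the 31 genes in the negative direction, against 2.06% of all probe sets and 3.29% of the brighter ones, and 0 in the positive direction, against 2.17% and 3.83%. By the same limma fit, 10 were negative and 1 positive at an unadjusted p under 0.05, a threshold not counted over all probe sets. The response of ELT3-245 minus that of ELT3 was -0.82 on the log2 scale for Hsd17b4 (SE 0.19, adjusted p = 0.032) and -0.67 for Eci1 (SE 0.16, adjusted p = 0.0325). Hsd17b4 rose by 0.69 in ELT3 and its difference in ELT3-245 was -0.13 (adjusted p = 0.591). The Eci1 responses were 0.30 in ELT3 (adjusted p = 0.0679) and -0.37 in ELT3-245 (adjusted p = 0.0349), each under 1.5-fold. Both calls are close to the threshold: each was lost without any 1 of 9 of the 12 arrays, with adjusted p of 0.0382 to 0.0819 for Eci1 and 0.0407 to 0.0775 for Hsd17b4 over the 12 arrays left out in turn. The Eci1 call was also lost with an intensity trend and robust moderation in limma (adjusted p = 0.107). It held without replicate 3 of ELT3 with DMSO, replicate 1 of ELT3 with rapamycin or replicate 1 of ELT3-245 with rapamycin. The Hsd17b4 call held without replicate 2 or 3 of ELT3-245 with DMSO or replicate 2 of ELT3 with rapamycin. Close outside the call lay Ehhadh at -0.78 (SE 0.21, adjusted p = 0.0591) and Acadl at -0.57 (SE 0.14, adjusted p = 0.0456, under 1.5-fold). Over the 31 genes 23 differences were negative, with a median of -0.23 against -0.01 over all probe sets.

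**Figure D4:**
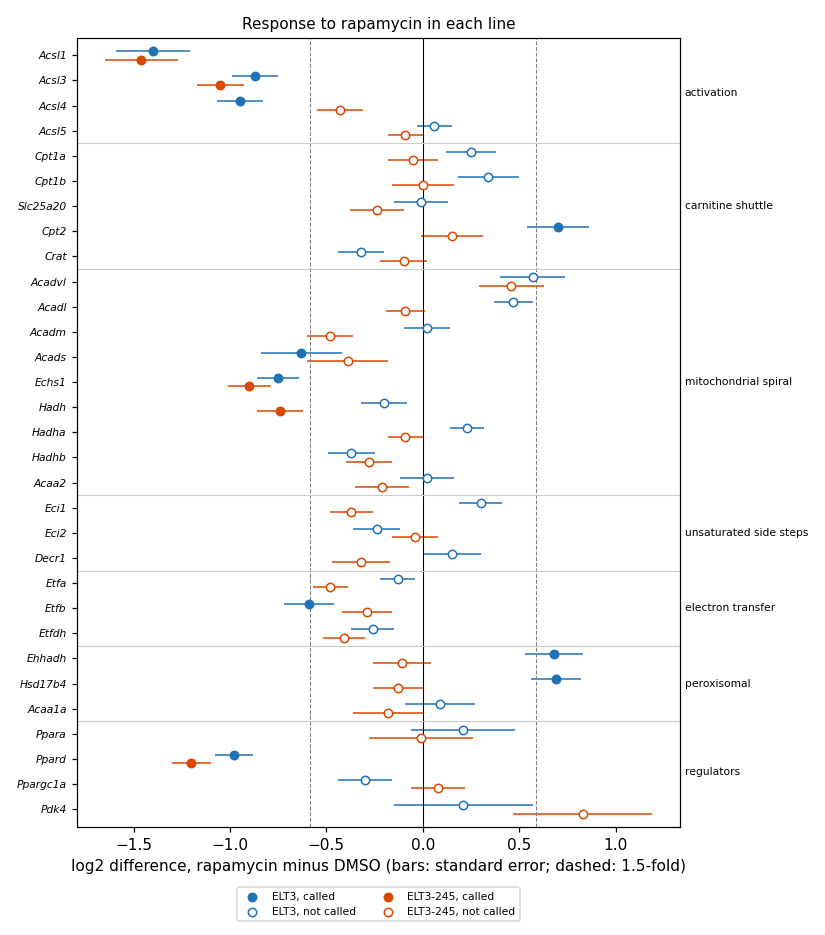
Log2 difference of rapamycin minus DMSO for the 31 genes, ordered by role, in ELT3 (blue) and in ELT3-245 (orange). Bars are standard errors from the fit, filled points are called and dashed lines mark 1.5-fold. Acsl1, Acsl3, Echs1 and Ppard were called lower in both lines, and Hsd17b4 and Ehhadh lie at 0.69 and 0.68 in ELT3 and at -0.13 and -0.11 in ELT3-245.

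The upstream regions were searched for motifs that are textbook sites for regulators of this pathway. RefSeq promoters were found for 26 of the 31 genes and not for Cpt1b, Acadl, Acaa2, Decr1 and Ppard. Exact matches were sought on both strands in the 250 bases before the start. The full PPAR element AGGTCANAGGTCA was in none of the 26 and in 0.0508% of all 33469 promoters. Its core motif AGGTCA, which also lies within the full element and within the motif TNAAGGTCA of estrogen-related receptors, was in 4 of 26 (Acadvl, Echs1, Eci1 and Hsd17b4) and in 14.1% of all. TNAAGGTCA was in none of the 26 and 1.04% of all, the E-box CACGTG was in none and 5.59%, and the sterol element TCACNCCAC was in Ehhadh alone and 0.974%. Acadvl was the only one with 2 core motifs, starting 169 and 17 bases before the start. Its window is shown with those in capitals, at chr10:55236706-55236955 on the minus strand of GRCr8. In Hsd17b4, printed above, the match starts 56 bases before the start.
Acadvl: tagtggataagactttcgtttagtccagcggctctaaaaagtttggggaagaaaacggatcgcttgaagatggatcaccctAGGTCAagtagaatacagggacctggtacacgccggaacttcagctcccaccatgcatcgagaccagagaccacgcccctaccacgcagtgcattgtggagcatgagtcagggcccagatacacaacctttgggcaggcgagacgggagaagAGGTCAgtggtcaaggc

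Some genes that feed, store and control fatty acids differed more between the lines than any of the pathway's enzymes. Those named here are the called ones with the largest differences. Of 27 measured genes of uptake, storage and release, 5 were called higher (18.5%) and 5 lower (18.5%) in ELT3-245 in DMSO, against 7.3% and 7.56% of all probe sets and 10.8% and 11.8% of the brighter ones. In rapamycin 4 were higher (14.8%) and 6 lower (22.2%), against 8.86% and 7.92% of all and 14.6% and 12.1% of the brighter ones, so the share called higher was near that background. Rapamycin raised 1 (3.7%) and lowered 6 (22.2%) in each line. Among all probe sets it raised 7.47% and lowered 8.45% in ELT3, and raised 5.65% and lowered 4.98% in ELT3-245. Among the brighter ones these shares were 12.4% and 15.4% in ELT3 and 9.89% and 8.75% in ELT3-245. Lpl, the lipase that frees fatty acids from lipoproteins, was read at 7.98, 7.64 and 7.81 in ELT3 with DMSO, 7.78, 7.63 and 7.45 in ELT3 with rapamycin, 11.76, 11.51 and 11.95 in ELT3-245 with DMSO and 9.77, 10.29 and 9.83 in ELT3-245 with rapamycin. The resistant cultures were far above the others, and within them rapamycin gave the lower values. The log2 difference in DMSO was 3.93 (SE 0.17, 15.2-fold, adjusted p = 3.88e-09), and in ELT3-245 Lpl fell by 1.77 with rapamycin (SE 0.17, 3.42-fold, adjusted p = 2.04e-05). Its response differed between the lines by -1.59 (SE 0.24, adjusted p = 0.00395). Plin2, the coat protein of lipid droplets, was higher in ELT3-245 by 2.32 in DMSO (4.98-fold, adjusted p = 4.65e-07) and by 1.80 in rapamycin (3.49-fold, adjusted p = 4.54e-06).

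The cytosolic fatty acid carriers went different ways between the lines. Fabp3, the heart form, was lower in ELT3-245 with a log2 difference of -2.22 in DMSO (4.67-fold, adjusted p = 8.34e-07), and Fabp5, the epidermal form, was 0.73 higher (1.66-fold, adjusted p = 0.00595). Both fell with rapamycin in both lines. Fabp3 fell by 2.45 in ELT3 (adjusted p = 1.27e-06) and by 1.54 in ELT3-245 (adjusted p = 6.72e-05), and Fabp5 fell by 2.03 in ELT3 (adjusted p = 4.01e-06) and by 1.32 in ELT3-245 (adjusted p = 0.000159) on the log2 scale.

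Of 30 measured regulators and further PPAR targets, 7 were called higher (23.3%) and 3 lower (10%) in ELT3-245 in DMSO, and 5 (16.7%) and 3 (10%) in rapamycin. Against the background shares above, those other than the 7 higher in DMSO lay near the brighter probe sets. Rapamycin raised 3 (10%) and lowered 6 (20%) in each line. Among the brighter probe sets it raised 12.4% and lowered 15.4% in ELT3, and raised 9.89% and lowered 8.75% in ELT3-245. The share raised was near that background in both lines. Pparg, the PPAR receptor of fat storage, had group means of 8.57 in ELT3 with DMSO, 9.09 in ELT3 with rapamycin, 5.82 in ELT3-245 with DMSO and 6.20 in ELT3-245 with rapamycin (SD 0.13, 0.22, 0.40 and 0.25, n = 3). It was lower in the resistant line by a log2 difference of -2.74 in DMSO (adjusted p = 5.16e-07) and -2.89 in rapamycin (adjusted p = 3.02e-07), while Ppard was higher. Prkaa2, a catalytic subunit of the energy sensor AMPK, was also lower, at -2.60 in DMSO (adjusted p = 2.34e-07) and -2.11 in rapamycin (adjusted p = 1.63e-06). Foxo1, a transcription factor that activates Pdk4 in muscle and liver, was higher by 2.57 in DMSO (adjusted p = 9.39e-09) and by 3.21 in rapamycin (adjusted p = 1.14e-09). Bdh1, an enzyme of ketone body metabolism, fell by 1.09 with rapamycin in ELT3 (adjusted p = 4.12e-05) and by 1.64 in ELT3-245 (adjusted p = 3.34e-06).

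Of 24 other mitochondrial enzymes measured, 3 were called higher (12.5%) and 4 lower (16.7%) in ELT3-245 in DMSO, near the 10.8% and 11.8% of the brighter probe sets, and 2 (8.33%) and 2 (8.33%) in rapamycin, below the 14.6% and 12.1% there. Slc22a5, the carnitine importer of the cell membrane, was lower in ELT3-245 in DMSO by a log2 difference of -1.72 (3.29-fold, adjusted p = 3.97e-05), and Acot2, a mitochondrial thioesterase that splits acyl-CoA again, by -2.05 (4.14-fold, adjusted p = 8.61e-07). Mcee, the methylmalonyl-CoA epimerase in the breakdown of the propionyl-CoA left from odd chains, was 1.31 higher (2.48-fold, adjusted p = 6.03e-05). Rapamycin raised 3 of the 24 (12.5%) and lowered 2 (8.33%) in ELT3, against 12.4% and 15.4% of the brighter probe sets. In ELT3-245 it raised 2 (8.33%) and lowered 5 (20.8%), against 9.89% and 8.75%. Acot13, a further thioesterase, fell with rapamycin by 1.25 in ELT3 (adjusted p = 0.000254) and by 0.97 in ELT3-245 (adjusted p = 0.00231). In ELT3-245 Mcee also fell, by 0.84 (adjusted p = 0.00318), and Acot2 rose by 0.59 (adjusted p = 0.0213). The Acot2 call was lost after quantile normalization or median centring. It was also lost without replicate 1 of ELT3-245 with DMSO or replicate 1 or 2 with rapamycin. Of 22 other peroxisomal genes measured, limma called 1 higher (4.55%) and 0 lower in DMSO, under the 7.3% and 7.56% of all probe sets, with 5 higher and 3 lower at an unadjusted p under 0.05, a threshold not counted over all probe sets. In rapamycin it called 1 higher (4.55%) and 4 lower (18.2%), against 8.86% and 7.92%. The gene called in DMSO was Hacl1, a lyase of alpha oxidation, at 0.81 (1.75-fold, adjusted p = 0.00327).

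In ELT3-245, 2 peroxisomal genes of branched chains responded to rapamycin in opposite directions. Of the 22 other peroxisomal genes measured, 1 (4.55%) was called higher there and 2 (9.09%) lower. All probe sets gave 5.65% and 4.98%, and the brighter ones 9.89% and 8.75%. In ELT3 the counts were 2 (9.09%) and 1 (4.55%), against 7.47% and 8.45% of all and 12.4% and 15.4% of the brighter ones. These shares lay near or under those of the brighter probe sets. Amacr, a racemase needed for branched chains, rose in ELT3-245 by 1.27 (2.41-fold, adjusted p = 0.000138), and its response differed between the lines by 0.93 (SE 0.22, adjusted p = 0.0347). The latter call held only without replicate 3 of ELT3 with DMSO or replicate 3 of ELT3-245 with rapamycin, and was lost without any other single array, with adjusted p up to 0.0829. Phyh, the hydroxylase that starts the breakdown of phytanic acid, fell by 0.69 in ELT3 (adjusted p = 0.00127) and by 1.19 in ELT3-245 (adjusted p = 4.02e-05). Abcd2, a peroxisomal transporter, was lower in ELT3-245 in rapamycin, at -0.80 (adjusted p = 0.0211). That call was lost without replicate 2 or 3 of ELT3-245 with rapamycin or replicate 1 or 3 of ELT3 with rapamycin, at log2 differences of -0.82, -0.66, -0.79 and -0.70 and adjusted p of 0.0511 to 0.0879.

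**Figure D5:**
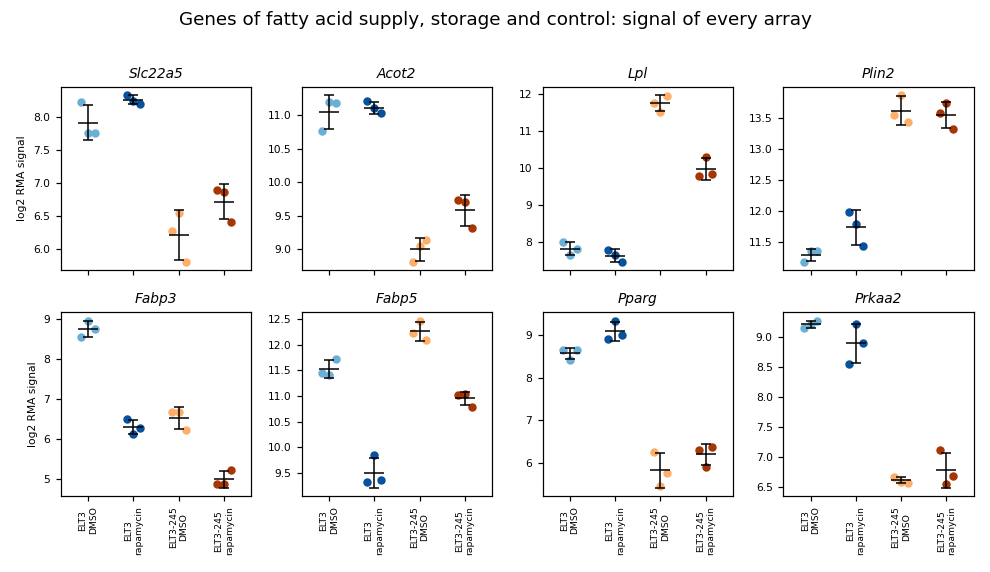
Log2 RMA signal of each array (points) with the group mean and SD (black bars, n = 3) for 8 genes of fatty acid supply, storage and control, with a vertical scale of its own for each gene. Lpl and Plin2 are high and Pparg, Prkaa2, Slc22a5 and Acot2 low in both ELT3-245 groups.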

How the data were processed

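RNA of 12 cultures was hybridized to Clariom S rat arrays, 1 array per culture. The deposited values are log2 signals that the authors made with RMA (version not given in the sources used here), which corrects background, normalizes between arrays and summarizes probes. No genome build for the probe sets was given in the sources used here, and none of their coordinates are printed. Of 23188 probe sets, 15049 had 1 gene symbol and 8139 had none. Where a symbol had several probe sets, the brightest by mean stood for it.

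Groups came from the sample titles. The 5 comparisons were tested in 1 limma fit of 4 group means (limma 3.58.1 in R 4.3.3, residual df 8, prior df 3.906), with Benjamini-Hochberg adjustment over all probe sets. A gene was called at an adjusted p under 0.05 and at least 1.5-fold. The fit was tested on simulated data first. With 3 arrays a group, an exact permutation test cannot go below p = 0.1, and the number of arrays limits the precision. The alternatives covered normalization, variance moderation, array weights, replicate block, dim and unnamed probe sets, the probe set per symbol, the groups fitted, fold threshold, an unequal-variance test per gene and leaving out each array. The 31 genes and all other lists were chosen with earlier results of these data known. Genes called at least once are given with every array, and from each other list at most the 4 called genes with the largest difference. Replicate numbers were not taken to pair the samples, because not all same-numbered samples deviated together.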

Additional observations from a re-analysis of the deposited data

Results flagged for a closer look

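The rapamycin response differed between the lines, by a test of the difference itself, in 2 of the 31 genes (6.45%). That test called 4.23% of all probe sets and 7.12% of the brighter ones, so the share was near that background. The difference was -0.67 on the log2 scale (ELT3-245 response minus ELT3 response) for Eci1, the isomerase for unsaturated chains, and -0.82 for Hsd17b4, the peroxisomal D-bifunctional protein. The rapamycin arrays of Eci1 lay above the DMSO arrays in ELT3 and below them in ELT3-245. Each call was lost without any 1 of 9 of the 12 arrays. In the other lists the same test called 2 of 27 genes of uptake, storage and release (7.41%) and 1 of 30 regulators and PPAR targets (3.33%). It called 1 of 24 other mitochondrial enzymes (4.17%) and 1 of 22 other peroxisomal genes (4.55%). These shares lay near or under the 7.12% of the brighter probe sets. Of the genes named from these lists, the response differed by 0.93 for Amacr, the racemase of branched chains, and by -1.59 for Lpl, the lipoprotein lipase. The Amacr call was lost without any 1 of 10 of the 12 arrays, with adjusted p up to 0.0829, and the Lpl call held without each array in turn.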

How the results depend on the processing

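Of 41 gene calls in the 5 comparisons, 31 stayed past both thresholds without each array in turn and 10 were lost without at least 1 array. No gene changed direction while called. The 2-fold threshold cost 33 calls, the most of any alternative tried. There the counts fell to 2 higher and 0 lower between the lines in DMSO, 1 and 1 in rapamycin, 0 higher and 1 lower for rapamycin in ELT3, 3 lower in ELT3-245 and 0 for the difference of the responses. With no fold threshold they came to 10 higher between the lines in rapamycin, 5 higher in ELT3 and 10 lower in ELT3-245. An unequal-variance test per gene, which does not share the spread across probe sets, kept 19 of 39 calls. It gave 4 higher in DMSO, 2 higher and 2 lower in rapamycin, 0 higher in ELT3 and 3 lower in ELT3-245. The 2 genes called for the difference of the responses became 4 after quantile normalization (with Acadl and Hadh) and 4 with array weights (with Hadh and Ehhadh), 1 with an intensity trend and robust moderation, 1 without dim probe sets, which removed Eci1, and 0 with the replicate block. Leaving out 1 array gave 0 to 2. For genes higher between the lines in rapamycin it gave 3 to 6, with 3 without replicate 3 of ELT3 with rapamycin, the array whose removal cost the most calls (7). The replicate block lost no other call. It is given as an alternative only: 4 of 18 same-numbered pairs correlated above 0.1, from -0.1237 to 0.2155, and 4 of 12 arrays correlated best with their own number. Median centring lost 1 call, that of Hadhb in DMSO. The cause was not tested. Of the called genes, Pdk4, Ehhadh and Eci1 were below the median signal.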
